A study of Mus musculus with 4 samples.

Results

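The genes described are transcription factor family genes of the mouse pyloric stomach, measured by RNA-seq in 2 libraries of mice able to delete the Hippo kinases LATS1 and LATS2 and in 2 control libraries. They were found by symbol: homeobox, T-box, SOX, FOX, GATA, HNF, KLF, ETS, nuclear receptor, bZIP, NF-kB, STAT, SMAD, RUNX, ID and bHLH names, with Foxm1 left out. The pattern matched 51 of the 2701 genes in the authors' deposited table, 50 of them protein-coding, against 355 protein-coding genes that carry such a name in the GENCODE M21 annotation. Every row of that table has an adjusted p of at most 0.05 in the authors' own test, so all 51 had been called different before any count of them was made. What can be read from the rows is direction, size and spread; the other factor genes were not analysed here.

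Control mice (WT 1 and WT 2) carried floxed Lats1 and Lats2 (Lats1fl/fl;Lats2fl/fl) without Cre, and the others (Lats1/2iΔLgr5 1 and 2, called knockout 1 and knockout 2) carried both floxed genes with Lgr5-CreER. The strain was C57BL/6, both genotypes were taken 8 weeks after tamoxifen, and age and sex are not given in the labels. Lgr5-CreER is active in Lgr5-expressing stem cells at the gland base, so deletion starts there and passes to their descendants; cells of other origin keep both genes, and because controls lack CreER, effects of the allele itself and of the deletion cannot be told apart. RNA came from sets of 10 µm cryosections that hold every layer met by the blade. Nothing in the labels says whether the replicates were separate animals, so p-values measure the spread between these libraries.

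LATS1 and LATS2 phosphorylate YAP and TAZ, which otherwise enter the nucleus and act through TEAD factors. The stomach lining renews itself from gland stem cells, and families such as GATA, FOX, KLF and ETS set regional identity and the passage from dividing progenitor to surface mucous, gland mucous or endocrine cell. Members of 1 family often bind similar DNA and may have opposite effects, as with KLF4 and KLF5 in gut epithelium.

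Among the 51 genes, 11 rose and 40 fell in the knockout libraries. Of all rows in the authors' deposited table, 42.9% are higher and 57.1% lower, against 21.6% and 78.4% of the factor genes. The median log2 fold change of the 51 genes was -0.66, with a range from -3.29 for the non-coding Tbx3os2 to 3.22 for Nfe2l3, and it was -0.50 for all listed genes. A change of 1 or more on the log2 scale was seen in 5 of the 11 rises (45.5%), against 57.5% of all listed rises, and in 10 of the 40 falls (25%), against 27.2% of all listed falls. As shares of all rows these were 9.8% and 19.6% of the factor genes and 24.7% and 15.5% of the listed genes. The groups did not overlap for any of the 51, as for 42.9% higher and 57.1% lower of all listed genes, which is fixed largely by how the table was selected. In edgeR's quasi-likelihood test on the authors' size factors all 51 passed an adjusted p of 0.05, as did 42.8% of listed genes upward and 57.1% downward. Adjusted p for the 51 lay between 0.0118 and 0.0276. The rows had been selected on these same counts, so this outcome too was largely fixed in advance. The edgeR adjustment covers the listed rows only, so its values are not error rates over all genes the authors tested. In sections of whole tissue, fewer cells of a type and less RNA per cell cannot be told apart.

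The scaling between libraries decides how many falls are called. The authors' size factors were recovered from their deposited values, and TMM factors computed from the listed rows alone shift the median log2 fold change upward from them by 0.36. This scaling treats the bulk of the rows it is given as unchanged, whereas every listed row had been selected as changed. Its shift moves all genes upward by similar amounts, so rises kept and falls lost were largely fixed in advance. On the TMM scale all 11 rises and 12 of the 40 falls passed, as did all 1157 rises and 491 of the 1542 falls called among the listed genes. As shares of all rows these were 21.6% and 23.5% of the factor genes and 42.8% and 18.2% of the listed genes. The 12 falls were in Tcf23, Klf10, Ovol1, Nr3c2, Atf4, Nr4a2, Tcf7l2, Elf3, Gata4, Mxd1, Nr1i2 and Tbx3os2. No direction turned on that scale, and Nfe2l2 alone turned, to 0.02, with median-ratio factors, which shift the median by 0.41. Statements that a gene fell are on the authors' scale, and the TMM count stands beside each family. A fall that passed with TMM factors was large enough to outlast the shift. One that missed was not thereby shown to be absent, and a rise that passed gained no further evidence. The counts of each family are to be read against all listed genes. Of these 42.8% rose and 57.1% fell at the threshold on the authors' scale, and 42.8% and 18.2% on the TMM scale. With knockout 2 left out, no factor gene kept an adjusted p below 0.05 in edgeR, although 8 rises and 25 falls had an unadjusted p below 0.05; only 4 and 1 of all 2701 genes passed in that fit. Without knockout 1, 24 of the 51 lost their calls, among them Grhl1, Ets2, Klf6, Klf3, Foxj2, Sox21, Creb3l3, Mafk, Rxra, Tbx3, Atf7ip and Relch, and without WT 2 there were 16, among them Grhl1, Ets2, Klf3, Foxj2, Rxra, Atf7ip and Relch.

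**Figure D1:**
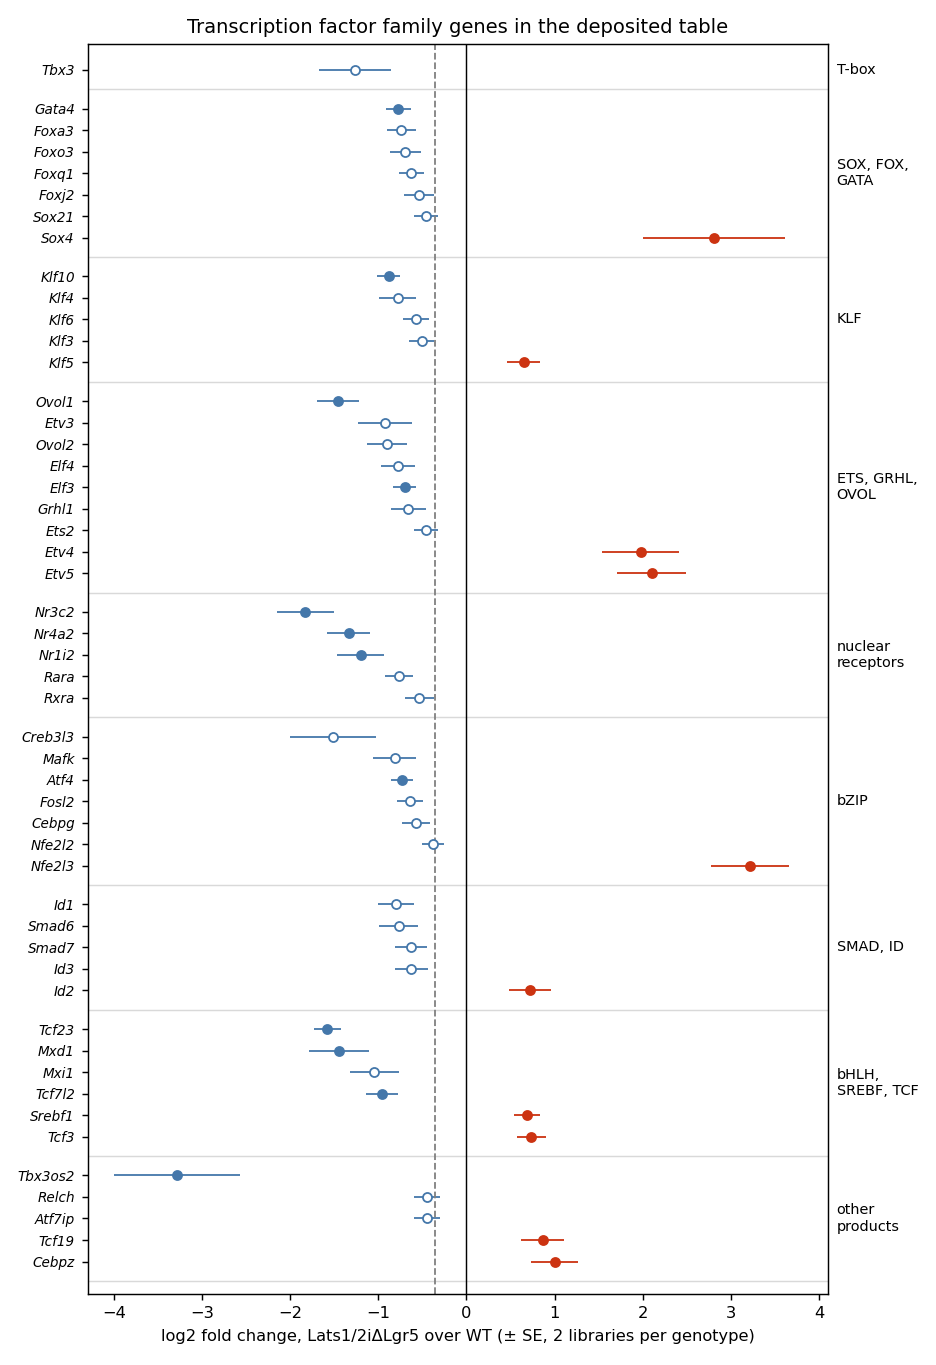
Log2 fold change (Lats1/2iΔLgr5 over WT, ± SE, 2 libraries per genotype) of 50 of the 51 genes by family; red points rose and blue points fell, filled points also passed (adjusted p of 0.05) with TMM factors, and the dashed line marks where the TMM scale has its 0. All 10 rises drawn are filled and 12 of the 40 falls are; on median-ratio factors Nfe2l2 turns to 0.02.

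Reads counted in the 2701 rows, a part of each library, numbered 14315314 and 17689207 in WT 1 and 2 and 13413629 and 14225132 in knockout 1 and 2, of which the factor genes took between 1.186% and 1.321%. The targeted gene was checked first. Lats1 (chr10:7681209-7716458, GRCm38) had 2152 and 1974 normalized counts (counts divided by the authors' size factors) in WT 1 and 2 and 943 and 1129 in knockout 1 and 2, a log2 fold change of -0.99 ± 0.17 (SE). Both knockout libraries lay below both controls, in the direction of the labels. Lats2 had no row to check. Surface mucous markers matched the tissue label: Gkn1, Gkn2, Tff1 and Muc5ac, 4 of 4, were listed, and their summed level was 4326069 and 4578813 normalized counts in WT and 2329384 and 1898614 in the knockout libraries. All 4 markers fell, 3 of them also on the TMM scale. Their part in the falls of the factor genes was not tested. Pdx1, a homeobox factor of the antrum, pylorus and duodenum, was present at 1829 and 2193 against 1297 and 1140 normalized counts.

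Levels per length place the genes by abundance. Normalized counts per kb of merged exons were highest in WT for Klf4 (11930), Id1 (10280), Elf3 (6509) and Nfe2l2 (4301), and lowest for Sox4 (6.20) and Nfe2l3 (9.52). These 4 abundant factors all fell and the 2 scarcest rose. Of the 11 genes that rose, 10 lay below the median WT level per kb of the 51, and among all listed genes that rose 87.1% lay below the median of the table, a share close to that of the factor genes. The WT level enters both quantities.

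**Figure D2:**
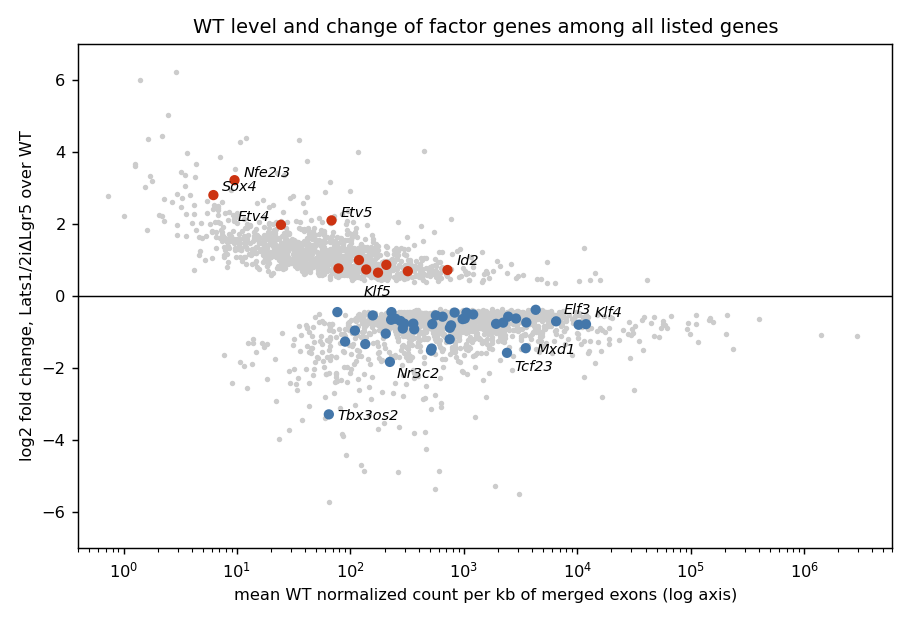
Log2 fold change (vertical, Lats1/2iΔLgr5 over WT) against the mean WT normalized count per kb of merged exons (horizontal, log axis). Grey points are other listed genes, and red and blue points the factor genes that rose and fell. Left out are 6 listed genes by a rule that drops those without an exon length, without WT counts or with a change beyond the vertical axis. The red points lie to the left of most blue ones, from Sox4 at 6.20 to Id2 at 718 normalized counts per kb.

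Promoter letters were searched because the genotype acts on TEAD factors, whose core motif is GGAATG. RefSeq (GRCm38.p6) gave 53 promoters, each 250 bases before to 50 after the start, for 40 of the 51 genes. The core occurred on either strand in 6 of these promoters (11.3%) and in 14.7% of 32851 mouse promoters of the same length. It was found in Nfe2l3 and Sox4, which rose most, and in Tcf23, Elf3, Id3 and Foxo3, which fell. The 3 promoters printed belong to the pair of genes with the largest rises and to Tcf23, the gene with the smallest adjusted p; capitals mark the core or its reverse complement CATTCC. They lie at chr6:51432419-51432718 (+ strand, core starting at -135 from the start), chr13:28953650-28953949 (- strand, at -168) and chr5:30968427-30968726 (+ strand, at -116).
Nfe2l3: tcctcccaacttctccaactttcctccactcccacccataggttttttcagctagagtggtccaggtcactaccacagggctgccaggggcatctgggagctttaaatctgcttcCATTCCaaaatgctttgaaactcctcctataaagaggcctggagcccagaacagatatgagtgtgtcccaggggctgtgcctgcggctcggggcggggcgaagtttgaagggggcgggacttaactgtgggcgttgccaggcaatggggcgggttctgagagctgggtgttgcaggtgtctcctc
Sox4: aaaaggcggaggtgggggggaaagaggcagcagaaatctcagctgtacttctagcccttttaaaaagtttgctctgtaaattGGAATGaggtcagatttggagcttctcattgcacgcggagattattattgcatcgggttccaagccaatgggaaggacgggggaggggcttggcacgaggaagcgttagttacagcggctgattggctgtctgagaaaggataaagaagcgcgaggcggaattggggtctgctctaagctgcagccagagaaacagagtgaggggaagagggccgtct
Tcf23: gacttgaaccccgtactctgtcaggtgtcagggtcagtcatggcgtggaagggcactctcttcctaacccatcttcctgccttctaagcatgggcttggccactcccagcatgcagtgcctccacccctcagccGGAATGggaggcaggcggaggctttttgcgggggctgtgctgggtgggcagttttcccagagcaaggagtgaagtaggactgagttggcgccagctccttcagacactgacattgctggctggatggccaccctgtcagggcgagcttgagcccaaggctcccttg
The core stood upstream of the start in all 3, whichever way the gene moved. In these promoters the other letters were rarer than the core, apart from the E-box. The AP-1 motif TGANTCA was in 3 promoters (5.66%, against 7.81% of all), those of Creb3l3, Elf4 and Tbx3os2. The E-box CACGTG was in 7 (13.2%, against 7.15%), belonging to Elf4, Etv3, Klf4, Klf6, Mafk and Rara. Overlapping Rara promoters share the same site and are counted apart. Each of these genes fell, as did 78.4% of the 51. The STAT motif TTCNNNGAA was in 1 (1.89%, against 8.30%), that of Rara, and the interferon response letters GAAANNGAA in 2 (3.77%, against 8.56%), those of Fosl2 and Tcf7l2. The E2F letters TTTGGCGC were in 1 (1.89%, against 0.514%), that of Fosl2, and neither the CRE TGACGTCA nor the sterol response letters TCACNCCAC were in these windows (1.79% and 1.24% of all promoters). A match is a run of letters and not evidence of binding.

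Of 7 listed SOX, FOX and GATA genes, a grouping by name, 1 rose and 6 fell, and 1 and 1 passed on the TMM scale, where 57.1% of all listed genes fell on the authors' scale and 18.2% on the TMM scale. Gata4 (chr14:63198922-63271692), which patterns foregut and stomach epithelium, had 6814 and 8205 normalized counts in WT 1 and 2 and 4456 and 4338 in knockout 1 and 2. Its log2 fold change was -0.77 ± 0.14 (SE), and it also passed on the TMM scale (edgeR adjusted p = 0.0297). The WT libraries were the uneven ones and the knockout libraries nearly equal. Foxa3, an endodermal forkhead factor, had 4056 and 4998 against 2938 and 2492, and Foxq1, on which Muc5ac expression depends in mouse stomach, had 4943 and 4936 against 3508 and 2901. These fell by 0.74 ± 0.17 and 0.62 ± 0.14 on the log2 scale, and on the TMM scale neither passed (edgeR adjusted p = 0.064 and 0.125). Foxo3, a forkhead factor kept out of the nucleus by AKT, fell by 0.69, Foxj2 by 0.54 and Sox21, a repressor of the SOXB group, by 0.46. None of those 3 passed on the TMM scale.

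Sox4 went the other way. Sox4, a SOXC factor of progenitor cells, had 42.9 and 16.5 normalized counts in WT 1 and 2 and 325 and 87.5 in knockout 1 and 2. Knockout 1 stood far above knockout 2, and both lay above both controls. Its log2 fold change was 2.80 ± 0.81 (SE), and it was 1.57 and short of the threshold without knockout 1. Of 43 protein-coding Fox names 4 had a row, of 19 Sox names 2 and of 6 Gata names 1.

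Of the Krüppel-like factors, 5 of 17 were listed, 1 higher and 4 lower, and on the TMM scale 1 and 1 passed. Klf4 (chr4:55527143-55532466), which restrains division and promotes differentiation in gut epithelium, had 31021 and 41734 normalized counts in WT 1 and 2 and 18747 and 23583 in knockout 1 and 2. It fell by 0.78 ± 0.21 on the log2 scale (SE) and was the most abundant of the 51 genes per length in both genotypes. Klf5, which marks and sustains dividing cells in gut epithelium, had 968 and 855 against 1599 and 1260, a rise of 0.65 ± 0.19. The fall of Klf4 missed the threshold on the TMM scale (edgeR adjusted p = 0.104) and the rise of Klf5 passed there (0.00902). Neither kept its call without knockout 1. Klf10, a TGF-beta-inducible repressor, had the tightest values of the family, 3167 and 3129 against 1678 and 1740. Its log2 fold change of -0.88 ± 0.13 passed on both scales. Klf6, a growth-responsive early gene, had 9804 and 11810 against 6991 and 7563, and Klf3, a repressor that recruits CtBP, had 12820 and 14352 against 8946 and 10138. On the log2 scale they fell by 0.57 and 0.51, and by 0.21 and 0.15 with TMM factors, where they did not pass.

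ETS and epithelial differentiation factors gave 2 rises and 7 falls from 9 listed genes, and 2 and 2 on the TMM scale. Etv5 and Etv4 belong to the PEA3 group of ETS factors, which FGF and ERK signalling induce in many tissues. Etv5 had 375 and 184 normalized counts in WT 1 and 2 and 991 and 1403 in knockout 1 and 2. Etv4 had 101 and 50.7 against 243 and 353. In both genes WT 2 was the lowest library and knockout 2 the highest, and the groups did not overlap. Their log2 fold changes were 2.101 ± 0.388 and 1.98 ± 0.44 (SE), and without 1 library in turn they ranged from 1.68 to 2.70 and from 1.56 to 2.55. Etv3, an ETS repressor, had 2962 and 4545 against 2455 and 1509 and fell by 0.92 ± 0.31. Its fall was 0.58 on the log2 scale, and no longer called, without WT 2, and it was 0.61 without knockout 2.

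Ovol1 and Ovol2, zinc finger repressors that promote epithelial differentiation, fell together. Ovol1 had 1485 and 2146 normalized counts in WT 1 and 2 and 726 and 596 in knockout 1 and 2, a log2 fold change of -1.46 ± 0.24 (SE) that passed on both scales. Ovol2 had 582 and 643 against 372 and 284, or -0.90 ± 0.23, and missed the threshold with TMM factors (edgeR adjusted p = 0.0837). Elf3, an ETS factor confined largely to epithelia, had 13505 and 15355 against 8853 and 8894. Its fall of 0.70 ± 0.13 on the log2 scale was 0.34 with TMM factors, where it still passed (edgeR adjusted p = 0.0462). Elf4 fell by 0.78, Grhl1, a regulator of epithelial junction genes, by 0.66, and Ets2 by 0.46, and none of them passed on the TMM scale. Elf4 fell by 0.51 without WT 2, and its call was lost without knockout 1.

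All 5 listed nuclear receptors whose symbols fit the name pattern fell, and 3 of them passed on the TMM scale. Of all listed genes 57.1% fell on the authors' scale and 18.2% on the TMM scale. The pattern covers 24 protein-coding genes with an Nr symbol, 3 with a Rar and 3 with an Rxr symbol. It also covers 2 Ppar genes, without Pparg, and 1 Ror gene, none of which had a row. Receptors with other symbols were listed too: Pparg and Esrra fell, and Esrrg, an orphan receptor, rose on both scales, from 10.1 and 5.51 normalized counts in WT 1 and 2 to 16.3 and 172 in knockout 1 and 2, with knockout 2 far above the other 3 libraries. Its log2 fold change of 3.61 was 1.08 without knockout 2. The mineralocorticoid receptor gene Nr3c2 (chr8:76899442-77245012), which mediates the response to aldosterone, had 1325 and 1561 normalized counts in WT 1 and 2 and 527 and 286 in knockout 1 and 2. This was the deepest fall among protein-coding members, 3.55-fold, with a log2 fold change of -1.83 ± 0.32 (SE). Nr4a2, an orphan receptor induced rapidly by many stimuli, had 578 and 520 against 248 and 188, or -1.33 ± 0.24. Nr1i2, the xenobiotic-sensing pregnane X receptor, had 1656 and 2177 against 1013 and 656, or -1.20 ± 0.27. These 3 passed on both scales, and in each of them knockout 2 was the lowest library. Rara, a retinoic acid receptor, had 1465 and 1664 against 923 and 918, and its partner Rxra, shared by many receptors, had 2714 and 3473 against 2179 and 2085. The knockout libraries of both genes were nearly equal. Rara fell by 0.77 ± 0.16 and Rxra by 0.54 ± 0.17 on the log2 scale, neither of which passed with TMM factors (edgeR adjusted p = 0.0607 and 0.305), and Rxra fell by 0.35 without WT 2.

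Leucine zipper (bZIP) factors gave 1 rise and 6 falls from 7 listed genes, and 1 and 1 on the TMM scale. Nfe2l3 (chr6:51432670-51458768), a relative of the antioxidant regulator NRF2, had 29.0 and 27.6 normalized counts in WT 1 and 2 and 341 and 185 in knockout 1 and 2. Its 9.30-fold rise was the largest of the 51 genes and its WT libraries agreed closely, while the knockout libraries were uneven. The log2 fold change was 3.22 ± 0.44 (SE), and without knockout 1 it was 2.71. Nfe2l2, which encodes NRF2 itself, had 16605 and 16049 against 12852 and 12204, a fall of 0.38 ± 0.13 on the log2 scale that became -0.02 with TMM and 0.02 with median-ratio factors. Its call was lost under the replicate block (edgeR adjusted p = 0.0547) and without any 1 library. Atf4, the effector of the integrated stress response, had 8333 and 8427 against 4830 and 5251, a log2 fold change of -0.73 ± 0.12 that passed on the TMM scale (edgeR adjusted p = 0.0363) but not with median-ratio factors (0.0614).

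Fosl2, an AP-1 subunit, had 9188 and 9688 normalized counts in WT 1 and 2 and 6678 and 5436 in knockout 1 and 2, and it was the 1 listed gene among 4 Fos and 3 Jun names. It fell by 0.64 ± 0.15 (SE) on the log2 scale. Creb3l3, a membrane-anchored factor of liver and small intestine, had 871 and 2226 against 679 and 407. WT 2 stood far above the other 3 libraries, and the log2 fold change of -1.51 ± 0.49 became -0.68, and no longer called, without WT 2. Cebpg, a partner of ATF4, fell by 0.57, and Mafk, a small MAF protein that pairs with NRF2, by 0.81, or 0.44 without WT 2. None of these 4 passed on the TMM scale.

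ID and SMAD genes, a grouping by name, made up the next group, 5 listed genes with 1 rise and 4 falls, of which the rise alone passed on the TMM scale. ID proteins bind bHLH factors and keep them off DNA, and Id1 and Id3 are standard BMP targets. Id1 had 9728 and 14133 normalized counts in WT 1 and 2 and 6692 and 7040 in knockout 1 and 2. Id3 had 4323 and 6005 against 3507 and 3198. Both fell, by 0.80 ± 0.20 and 0.62 ± 0.19 on the log2 scale (SE), with WT 2 well above WT 1, and without WT 2 by 0.50 and 0.37. Id3 lost its call without WT 2 (edgeR adjusted p = 0.0733), and without knockout 1 both lost theirs (0.0636 for Id1 and 0.065 for Id3). Id2 had 2059 and 1440 against 2453 and 3322, and it rose by 0.72 ± 0.24. Its call was lost without WT 2. The inhibitory SMAD genes Smad6 (798 and 1115 against 578 and 547) and Smad7 (1027 and 1237 against 757 and 706) fell by 0.77 and 0.63, and by 0.50 and 0.49 without WT 2, where neither was called. No receptor-regulated SMAD had a row among 8 Smad names.

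Of 35 TGF-beta and BMP genes 10 were listed, these 5 included, 2 higher and 8 lower, of which 2 and 1 passed on the TMM scale. The ligand gene Bmp2 fell from 2733 and 2849 to 1256 and 847 normalized counts, a log2 fold change of -1.41 ± 0.22 (SE), while the receptor gene Tgfbr2 rose by 0.74 ± 0.18. Skil, a SMAD corepressor, fell by 0.61, and with TMM factors it did not pass.

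bHLH, SREBF and TCF genes gave 2 rises and 4 falls from 6 listed genes, and 2 and 3 on the TMM scale. Tcf23 (chr5:30968662-30977018), a bHLH protein, had 9461 and 10308 normalized counts in WT 1 and 2 and 3610 and 3018 in knockout 1 and 2. It had the smallest adjusted p of the 51 in the authors' deposited table (4.9e-16), and its log2 fold change was -1.58 ± 0.15 (SE). Without 1 library in turn that value stayed between -1.71 and -1.45. Tcf7l2, an HMG-box factor that pairs with beta-catenin at Wnt targets, had 955 and 968 against 527 and 463, or -0.96 ± 0.18. Tcf3, which encodes the bHLH E proteins E12 and E47, had 572 and 543 against 932 and 927, or 0.74 ± 0.17. Both genes had replicates closer to each other than the genotypes were, and both passed on the TMM scale, but Tcf3 lost its call without knockout 1.

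Mxd1 and Mxi1 encode repressors that compete with MYC for the partner MAX and rise as cells leave division. Mxd1 had 19876 and 29815 normalized counts in WT 1 and 2 and 11688 and 6529 in knockout 1 and 2, and Mxi1 had 1285 and 1512 against 852 and 506. Both were lowest in knockout 2. They fell by 1.45 ± 0.34 and 1.04 ± 0.28 on the log2 scale (SE), Mxd1 on both scales and Mxi1 on the authors' scale (edgeR adjusted p with TMM factors = 0.0722). Of 13 genes of the MYC and MAX network these 2 and 2 that rose were listed: Myc, at 280 and 254 against 541 and 820, and Mycl, at 46.7 and 47.4 against 168 and 92.2.

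Srebf1, which drives fatty acid synthesis genes, had 1671 and 1944 normalized counts in WT 1 and 2 and 2799 and 3035 in knockout 1 and 2, a rise of 0.69 ± 0.15 (SE) on the log2 scale that passed with TMM factors (edgeR adjusted p = 0.00695). Of 23 SREBP pathway genes 12 were listed, Srebf1 included, 10 higher and 2 lower, with all 10 rises passing on the TMM scale. The desaturase gene Scd2 went from 4474 and 3988 to 18776 and 18516. Stard4, a sterol carrier gene, rose by 0.74 ± 0.13. The falls were in Insig2, which retains SREBP in the endoplasmic reticulum, and in Scap, which escorts it out, by 0.91 and 0.67; Scap did not pass on the TMM scale.

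Tbx3 (chr5:119670669-119684724), a T-box repressor active in stem and progenitor cells, was the 1 coding gene listed of 15 Tbx names, and none was listed of 39 Hox, 14 Nkx, 6 Irx, 5 Pbx, 3 Meis and 3 Pitx names. It had 365 and 825 normalized counts in WT 1 and 2 and 251 and 245 in knockout 1 and 2. The non-coding Tbx3os2, transcribed from the other strand 371 bp away on chromosome 5, had 47.9 and 126 against 11.8 and 6.25. Both were raised in WT 2 over WT 1, by 2.26-fold and 2.62-fold. The log2 fold change of Tbx3 was -1.27 ± 0.41 (SE), and -0.56 and short of the threshold without WT 2, while Tbx3os2 was at -3.29 ± 0.72 and -2.43. Because the counting's use of strand is not stated, reads from neighbouring transcripts on opposite strands cannot be assigned with certainty.

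The symbols also caught 4 proteins outside the factor families. Cebpz, a CCAAT-binding nucleolar protein with no leucine zipper, had 676 and 432 normalized counts in WT 1 and 2 and 982 and 1233 in knockout 1 and 2. Tcf19, a protein with PHD and forkhead-associated domains that peaks at the start of DNA synthesis, had 414 and 325 against 767 and 580. These rose by 1.00 ± 0.27 and 0.87 ± 0.24 on the log2 scale (SE) and passed with TMM factors; Tcf19 lost its call without knockout 1. Atf7ip, a partner of the histone methyltransferase SETDB1, had 1618 and 1564 against 1179 and 1158. Atf7ip and Relch, an endosomal protein, fell by 0.45 each, and on the TMM scale they did not pass (edgeR adjusted p = 0.598 and 0.585).

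**Figure D3:**
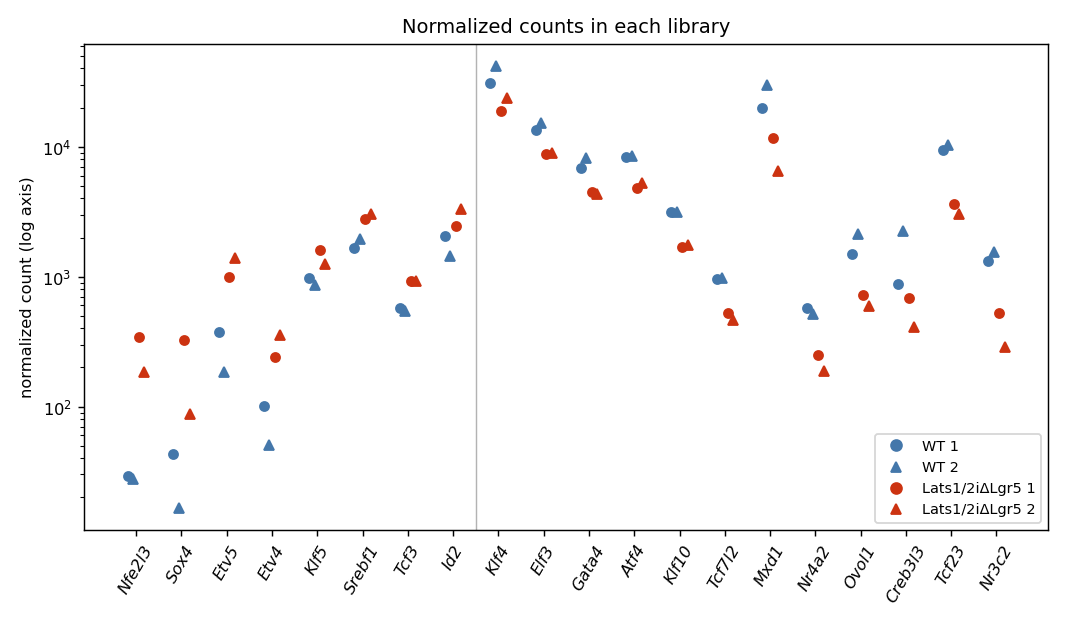
Normalized counts (log axis) of 20 of the 51 genes in each library; circles are the first and triangles the second replicate, blue WT and red Lats1/2iΔLgr5, with rises left and falls right of the vertical line. The knockout points lie on 1 side of the WT points in every gene shown, the widest gap being that of Nfe2l3, and WT 2 stands above WT 1 for Creb3l3.

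Relatives that moved in opposite directions can be compared without any scaling, as the ratio of their raw counts within 1 library. The pairs, 10 in all from the KLF, ID, ETV, SOX and NFE2L names, were taken because they had moved apart, so the ratios are a description with no test. Klf5 stood at 0.0312 and 0.0205 of Klf4 in WT 1 and 2 and at 0.0853 and 0.0534 in knockout 1 and 2, a 2.67-fold shift of the geometric mean. Id2 stood at 0.212 and 0.102 of Id1 in WT and at 0.367 and 0.472 in the knockout libraries, a shift of 2.83-fold. Nfe2l3 stood at 0.00175 and 0.00172 of Nfe2l2 and then at 0.0266 and 0.0152, an 11.6-fold shift. In knockout 2 the counts of Etv5 (0.930 of Etv3) and Id2 (1.04 of Id3) had come level with those of their relatives, which in WT they were well under. Counts of different genes are not corrected for length here, so the change between libraries is what the ratios show. For all 10 pairs both knockout ratios exceeded both WT ratios. This follows from the choice of pairs, since the groups overlapped for neither gene and the genes moved apart.

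**Figure D4:**
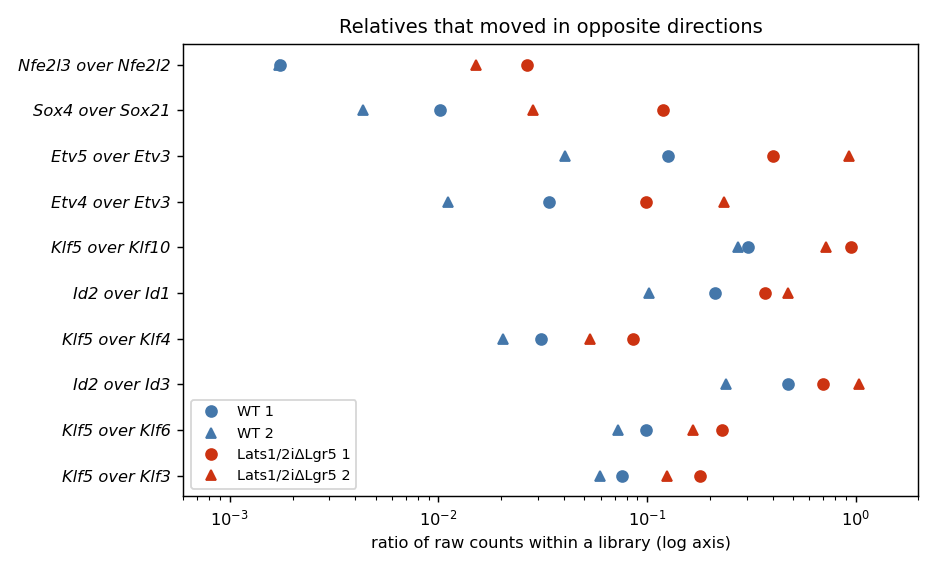
Ratio of raw counts of 2 relatives within each library (log axis) for the 10 pairs that moved in opposite directions; circles are the first and triangles the second replicate, blue WT and red Lats1/2iΔLgr5. The knockout ratios lie to the right of the WT ratios in each pair, by 2.22-fold for Klf5 over Klf3 up to 11.6-fold for Nfe2l3 over Nfe2l2.

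The replicates of both genotypes were uneven in some genes. WT 2 exceeded WT 1 by more than 1.5-fold in Etv3, Mxd1, Creb3l3, Mafk, Tbx3 and Tbx3os2, and was below WT 1 by as much in Etv5, Etv4, Sox4 and Cebpz. Knockout 2 was below knockout 1 by as much in 9 genes, Etv3, Sox4, Mxd1, Mxi1, Nfe2l3, Creb3l3, Nr3c2, Nr1i2 and Tbx3os2, and above it by as much in none of the 51. Among all listed genes, WT 2 was above WT 1 by as much in 313 of 2699 and below it in 161. Knockout 2 was below knockout 1 by as much in 198 of 2701 listed genes and above it in 112. Of the 40 falls, 22 (55.0%) ran in the order WT 2, WT 1, knockout 1, knockout 2, as did 52.9% of all listed genes that fell. Intestinal markers had the same order: 2 of 4 were listed, Vil1 and Fabp2, and their summed level was 24177 and 42441 normalized counts in WT 1 and 2 and 13557 and 9865 in the knockout libraries. Interferon regulatory factors did too, with 3 of 9 listed, all lower, summing to 2992 and 6020 against 1174 and 897 normalized counts. Irf7 had 1225 and 3558 against 341 and 222, and Irf9 1387 and 1921 against 565 and 467. The order was not particular to these lists. Summed surface mucous markers had it too, at 4326069 and 4578813 against 2329384 and 1898614 normalized counts. So did summed fibroblast markers (9237 and 12196 against 6867 and 5752) and the adipocyte marker Cidec. Avil and Kdr did not. The part of any of these in the falls was not tested.

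Other signalling and lineage lists held few rows. Of 32 gut and gastric factor genes outside the name pattern 6 were listed, 2 higher and 4 lower (2 and 1 on the TMM scale). Pparg, a lipid-sensing receptor, fell by 0.95 ± 0.17 on the log2 scale (SE), Pdx1 by 0.72 ± 0.17 and Esrra by 0.64 ± 0.18, of which Pparg passed on the TMM scale. Of 4 TEAD genes 2 were listed and rose, Tead4 from 56.8 and 45.2 to 139 and 185 normalized counts and Tead2 from 122 and 145 to 241 and 321. JAK-STAT genes had 6 of 28 listed, 2 higher and 4 lower, among them Stat2 (1372 and 2788 against 682 and 596) and Jak2, which fell by 0.75; none of 5 names from Stat3 to Stat6 was listed. NF-kB genes had 3 of 24 listed, and none of the 8 Nfkb names was among them: Chuk and Ikbkg, kinase complex genes, fell by 0.56 and 0.57, neither passing with TMM factors, and Traf3 rose by 0.53. Of 22 immediate-early genes 5 were listed, all lower, with Klf10, Nr4a2 and Ier3 also passing on the TMM scale. Klf4, Klf6, Klf10 and Nr4a2 are factor genes already counted among the 51, and Ier3 alone adds to them.

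Partner and target lists were read the same way. Of 16 NRF2-associated genes 8 were listed, Nfe2l2 included, 1 higher and 7 lower, and 1 and 4 passed on the TMM scale. Me1 fell from 44740 and 37601 to 18232 and 14484 normalized counts, and Hmox1 from 1774 and 1194 to 494 and 425, both passing there, while Gsta4, which fell by 0.74 on the log2 scale, did not pass (edgeR adjusted p = 0.0514). Among 22 ATF4 and unfolded protein response genes 5 were listed, 2 higher and 3 lower. Psat1, a serine synthesis enzyme gene, rose by 1.81 ± 0.33 (SE) while Atf4 itself and Chac1, at 179 and 55.2 against 20.8 and 15.6, fell. Clock genes had 2 of 19 listed, both higher: Arntl by 1.70 ± 0.39 and Npas2 by 1.07 ± 0.31, which encode activators of the clock. In retinoic acid metabolism Aldh1a1 and Dhrs3 fell by 0.57 and 0.56 (2 of 13 listed), not passing on the TMM scale. Coregulators had 2 of 19 listed, 1 higher and 1 lower, the lower being Ncoa4 at -1.48 on the log2 scale, and no row was found among 14 Groucho and Notch corepressor genes.

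Markers of further cell types had few rows. Enteroendocrine markers had 2 of 5 listed, Sst and Ghrl, summing to 63.1 and 72.8 normalized counts in WT and 318 and 1625 in the knockout libraries. The tuft marker Avil (1 of 4) was at 20843 and 27553 against 13477 and 13512, and the squamous marker Krt4 (1 of 4) at 31.6 and 54.0 against 147 and 124. Fibroblast markers (2 of 6, Col1a2 and Col3a1) summed to 9237 and 12196 against 6867 and 5752, the endothelial Kdr (1 of 5) was at 462 and 698 against 334 and 338, and the myeloid Cd14 (1 of 8) at 250 and 220 against 570 and 564. Pancreatic acinar markers (2 of 4) moved apart, with Cela1 at 5368 and 3624 against 7783 and 9962. Cela2a was at 6.31 and 215 against 3.62 and 0.782, so its fall rests on WT 2. The adipocyte marker Cidec (1 of 4) was at 2396 and 3433 against 1155 and 792. No row was found for the gland mucous, chief, parietal, smooth muscle, T and NK, B and plasma, or enteric neuron and glia lists, and their part in any change was not tested.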

How the data were processed

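RNA from cryosections of mouse pylorus was sequenced as 75 bp reads in 4 libraries. The submitters' processing notes name TopHat2 2.1.1 (an aligner), HTSeq (a counter), DESeq2 and the build GRCm38; whether counting used strand is not given in the sources used here. Raw read counts per gene and library are in the authors' deposited table. It also holds the authors' mean normalized signal (base mean), log2 fold changes, their standard errors and Wald statistics (a score), and p-values raw and adjusted. The authors deposited only genes with an adjusted p of at most 0.05, 2701 in all. Of their IDs, 2698 matched a GENCODE M21 symbol, and 1 was added to starts to give 1-based coordinates.

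Size factors were recovered from the deposited counts and base means (0.792 and 0.907 for WT 1 and 2, 1.10 and 1.28 for knockout 1 and 2), and rebuilt base means deviated by at most 0.0119%. With them, edgeR 4.0.16's quasi-likelihood test (R 4.3.3) was fitted to all 2701 genes, with Benjamini-Hochberg adjustment over the whole table. Fold changes and their SE come from this fit, and values of the authors' test are named as such. TMM and DESeq2 1.42.0 median-ratio scaling, the DESeq2 Wald test, filterByExpr, a replicate block and leaving out each library were tried. Totals per library cover the listed rows only, so sequencing depth is unknown. Library values are given for the 4 smallest adjusted p of each family group in the authors' table and for absolute log2 fold changes of at least 1.5; from each further list up to 3 genes with the smallest adjusted p were named, and other genes were shown after their values were seen. The factor genes, gene lists and promoter motifs were chosen with earlier results of these data known. A few genes, 1 of the 51 among them, stay in the fits and counts but are not reported here by name.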

Additional observations from a re-analysis of the deposited data

How the results depend on the processing

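With TMM factors the number of factor genes that fell and passed dropped from 40 to 12 and that of all listed genes from 1542 to 491, and with median-ratio factors to 10 and 433; the median log2 fold change of the 51 genes moved from -0.66 to -0.29 and -0.25. Both sets of factors came from rows all selected as changed, so these drops follow largely from the upward shift and do not show which falls are absent. Nfe2l2 turned to 0.022 with median-ratio factors, by the construction of that scale, and no other factor gene changed sign under any alternative. Leaving out 1 library in turn gave between 0 and 11 rises and 0 and 37 falls among the 51 genes, between 4 and 1038 and between 1 and 1416 among all listed genes, and medians between -0.74 and -0.54. The lowest counts came without knockout 2, where each factor gene kept its sign; without knockout 1 there were 6 rises and 21 falls, and without WT 2 there were 9 and 26. In these fits the lone library is assumed to vary like the other genotype, and the cause of the losses was not tested. With the replicate block, 11 rises and 36 falls passed, and the median was -0.67; Foxj2, Nfe2l2, Atf7ip and Relch lost their calls. Deviations of same-numbered libraries correlated at -0.162, a single value since 2 libraries per genotype deviate as mirror images, and the labels do not say whether the numbers mark a shared animal, batch or day; with the numbers crossed, a pairing added after seeing the data, 10 rises and 40 falls passed. The DESeq2 Wald test and filterByExpr left all 51 calls in place. Among all 2701 genes the Wald test called 1157 rises and 1543 falls, and filterByExpr left 1157 and 1541. The rows had been selected by the authors' DESeq2 test on these counts, so this was largely fixed in advance. Genes without a row could not be examined, and 2 libraries per genotype limit each value.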
